A study of Mus musculus with 6 samples.

Results

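The 37 genes described here are genes that microglia and other tissue macrophages are known for, picked by name out of the 50508 gene symbols measured in RNA from primary mouse neuron cultures. They comprise the chains of complement C1q, purinergic and chemokine receptors, the Csf1r and Trem2 receptors with the adaptor Tyrobp, homeostatic surface and secreted proteins, Fc receptors, pan-leukocyte genes, macrophage transcription factors, lysosomal and innate sensing genes, and genes linked to activation, chemokines and antigen presentation. The rule took them by symbol and has no threshold on a measured value, although earlier results of these data were known when the genes were chosen. Each of 3 sgKcna1 libraries and 3 sgLacZ libraries gave a value for each of the 37 symbols, and the question was whether these genes differed between neurons that received the guide RNA against the Kcna1 promoter and those that received the guide against LacZ, a bacterial gene that mice lack.

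According to the methods, the neurons came from C57Bl/6J pups on the day of birth and received lentivirus after 1 day in culture. Both groups carried dCas9-VP160, a Cas9 that does not cut, fused to a transcriptional activator, so that the sgKcna1 (Kcna1-dCas9A) and sgLacZ (Ctrl-dCas9A) groups differed in the guide. The activator was driven by the Ef1alpha promoter, which is active in most cell types and not only in neurons. The labels gave hippocampus as the tissue and the methods gave cortex, and the methods gave more than one time of harvest, so neither is fixed here. The methods speak in general of independent repetitions, but no source says of these libraries that the 3 of a group came from separate cultures, and the p-values therefore measure the spread between these libraries, which may be technical. The methods do not mention sorting of the cells.

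Microglia are the resident macrophages of brain tissue. They depend on signalling through the Csf1 receptor and on the transcription factor PU.1, encoded by Spi1, and they survey neurons through receptors such as Cx3cr1, whose ligand Cx3cl1 is made by neurons. They are the main source in the brain of C1q, the recognition molecule of the classical complement pathway, which is known for tagging synapses and debris for removal. Primary neuron cultures from newborn brain commonly hold some glia.

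The deposited values were whole numbers that summed to between 999047 and 999717 in each library. A value of 1 was therefore taken as about 1 tag in 1000000. They came from a 3′ tag kit that reads 1 end of each transcript. No source says whether the values were divided by gene length, and comparisons of level between genes assume that they were not. How many reads lay behind them is unknown, so no counting interval is given, and for low values the range that rounding to whole numbers allows is given in its place. Between 14788 and 15417 symbols were above 0 in a library. Kcna1 itself was listed at 16, 16 and 16 in sgLacZ and at 68, 47 and 65 in sgKcna1, a log2 fold change of 1.83 ± 0.16 (SE) on the log2(value + 1) scale with an adjusted p of 0.0345 (limma with Benjamini-Hochberg adjustment over 19504 genes, as for each adjusted p below that is not given for another setting, where the adjustment ran over the genes tested in that setting). One library stood apart from its group. The log2 values of sgLacZ replicate 3 correlated with those of the 3 sgKcna1 libraries at Pearson's r of 0.972, 0.968 and 0.960 across genes, and with sgLacZ replicates 1 and 2 at 0.962 and 0.964 (genes are not independent replicates), so the calls that changed without it are given too, for the members beside their values and for the other lists at the end of their account.

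The members were low in these cultures, as the plot of each member by library shows. Of the 37 members, 7 were listed at 0 in all 6 libraries, 12 had a mean above 0 and under 1, 15 had a mean from 1 up to 10, and 3 had a mean of at least 10, with Coro1a the highest, then C1qa and Aif1. The median gene above 0 had a mean of 4.83. The 7 at 0 were P2ry12 and P2ry13, purinergic receptors of resting microglia, Tmem119 and Siglech, surface markers used to tell microglia from other macrophages, Selplg, Spi1 and Ly86. Of all 50508 symbols, 31004 were at 0 in every library. None of 10 housekeeping genes was at 0, which does not show whether genes of low level were missed. Several defining microglial markers were thus at 0 while C1qa, Cx3cr1, Csf1r and Trem2 were above 0, and the name of the gene set says which genes were read, not which cells the cultures held. Of the members, 11 overlap another annotated gene, among them P2ry12, P2ry13, Cx3cr1, Csf1r, Laptm5, and Ccl3 with Ccl4. The methods say that the reads were stranded, but no source says whether tags were counted by strand. The values of these 11 are therefore less certain, whereas C1qa, C1qb, C1qc, Trem2 and Aif1 overlap none.

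**Figure D1:**
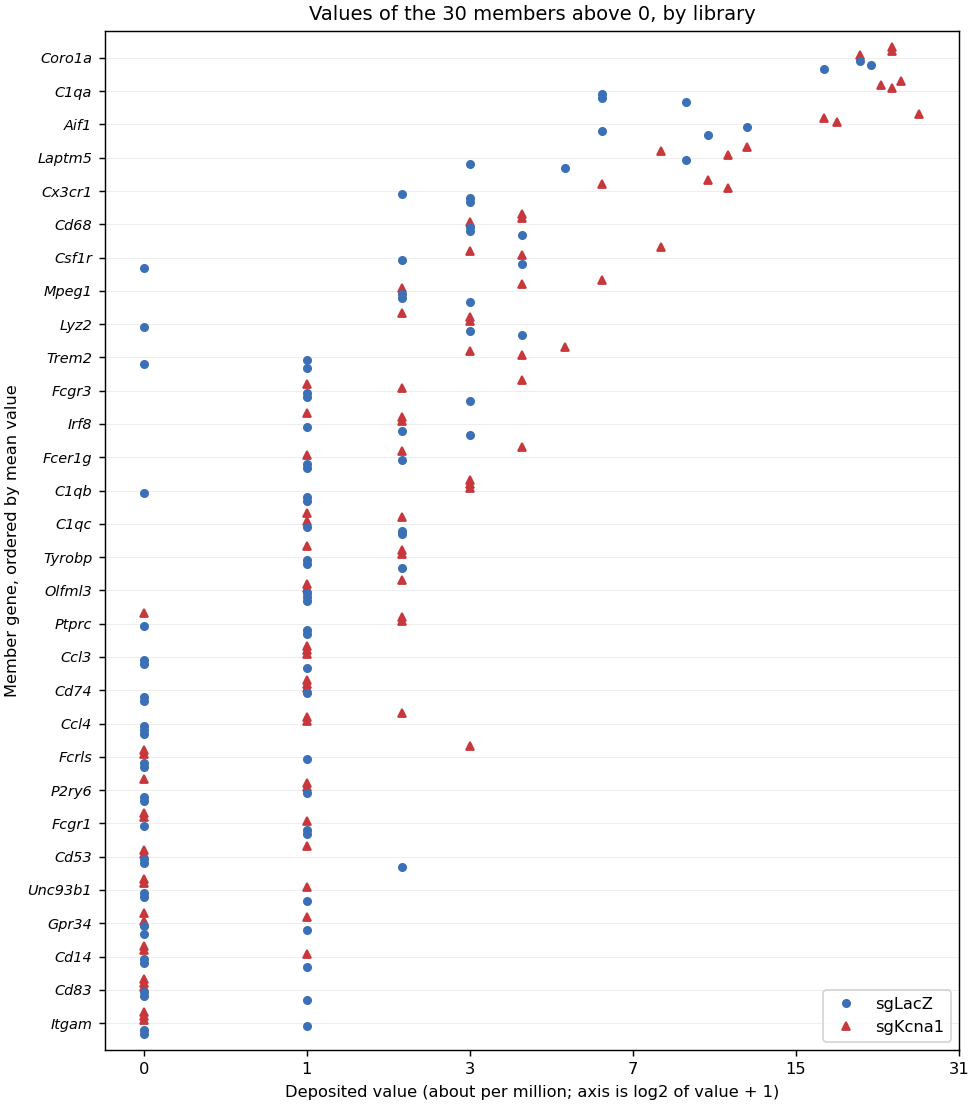
Deposited value in each library (horizontal axis, in tags per 1000000, spaced as log2 of value + 1) of the 30 members above 0 (rows, from the highest mean to the lowest), with circles for the 3 sgLacZ and triangles for the 3 sgKcna1 libraries. C1qa was at 6 to 9 in sgLacZ and 22 to 24 in sgKcna1, while the members at the foot of the plot lie mostly at 0 and 1 in both groups.

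The summed value of the members was higher in sgKcna1 neurons. It was 77, 63 and 68 in sgLacZ replicates 1 to 3 and 120, 113 and 144 in sgKcna1 replicates 1 to 3, which is 69.3 ± 7.10 against 126 ± 16.3 (SD, n = 3) and a ratio of 1.81. The groups did not overlap, and sgLacZ replicate 3 lay between the other sgLacZ libraries. In bulk RNA such as this, more or fewer cells of a type cannot be told apart from more or less RNA per cell. C1qa, at 16.7% to 19.5% of the sum in sgKcna1 and 8.82% to 11.7% in sgLacZ, did not carry the whole difference, since the other members together gave 68, 57 and 62 against 97, 91 and 120. Without Coro1a, the most abundant member, the ratio was 2.07. Without C1qa, Aif1 and Coro1a the sums were 41, 30 and 30 against 59, 51 and 71, a ratio of 1.79.

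**Figure D2:**
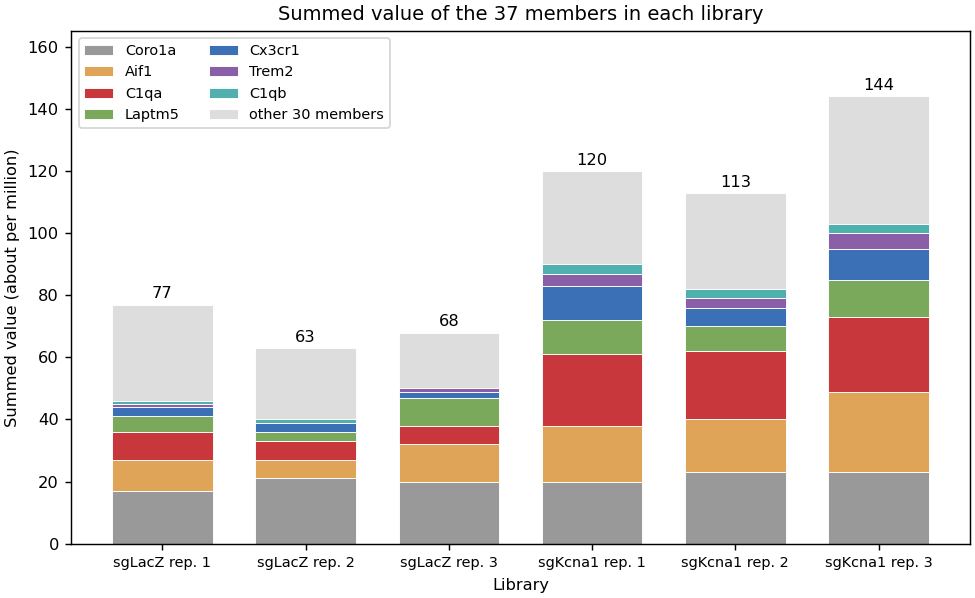
Summed value of the 37 members in each of the 6 libraries (bars, in tags per 1000000), with colours for 7 named members and light grey for the other 30. The sgKcna1 sums of 113 to 144 lay above the sgLacZ sums of 63 to 77.

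C1qa was the member that passed the test. At an adjusted p under 0.05, 1 of the 37 members was higher in sgKcna1 and 0 were lower, where 1.16% of all genes tested passed, 0.349% higher and 0.81% lower. At an unadjusted p under 0.05, 7 members were higher and 0 lower, where 9.59% of all genes were higher. For 6 members (C1qa, C1qb, Cx3cr1, Trem2, Aif1 and Ccl4) every sgKcna1 library lay above every sgLacZ library, against 8.98% of all genes, and for 0 members every sgKcna1 library lay below, against 13.3% of all genes. Of the 30 members above 0, the log2 fold change was above 0 in 21, below 0 in 6 and exactly 0 in 3, with a median of 0.33, where the median over all genes was -0.02. Among the 18 members with a mean of at least 1 the median was 0.43 and 16 had a fold change above 0, where the median over all such genes was -0.06. These medians describe the members and were not tested.

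**Figure D3:**
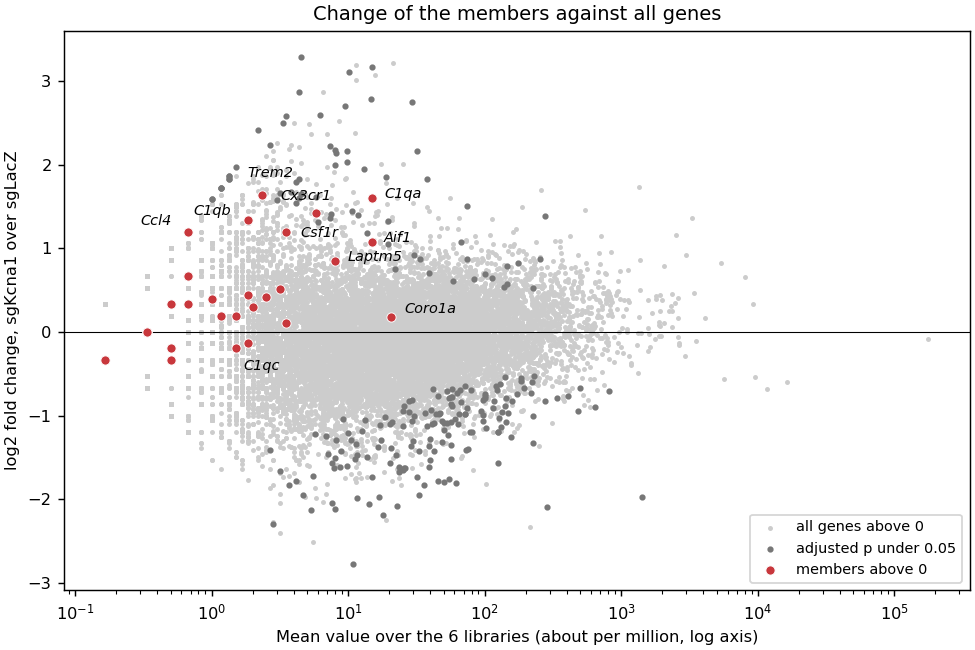
log2 fold change of sgKcna1 over sgLacZ (vertical axis) against the mean value over the 6 libraries (horizontal log axis) for all genes above 0 (light grey), genes at an adjusted p under 0.05 (dark grey) and the 30 members above 0 (red). The members lie at means from under 1 to about those of Coro1a, with Trem2 at 1.64 and C1qa at 1.61 the highest on the vertical axis.

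The promoters of the members whose groups did not overlap are shown because microglial genes share control by PU.1, which binds sites built around the letters GAGGAA, while Spi1, the gene of PU.1, was listed at 0. RefSeq promoters on GRCm38.p6 (250 bases before to 50 bases after the start of transcription) were at hand for 24 members, among them 4 of these 6, the other two being C1qa and Ccl4. Each is printed 5′ to 3′ on the strand of its gene, with capitals for GAGGAA or, where the match is on the opposite strand, its complement TTCCTC. Aif1 is at chr17:35176003-35176302 on the minus strand, C1qb at chr4:136886151-136886450 on the minus strand, Trem2 at chr17:48346151-48346450 on the plus strand and Cx3cr1 at chr9:120068247-120068546 on the minus strand.
Aif1: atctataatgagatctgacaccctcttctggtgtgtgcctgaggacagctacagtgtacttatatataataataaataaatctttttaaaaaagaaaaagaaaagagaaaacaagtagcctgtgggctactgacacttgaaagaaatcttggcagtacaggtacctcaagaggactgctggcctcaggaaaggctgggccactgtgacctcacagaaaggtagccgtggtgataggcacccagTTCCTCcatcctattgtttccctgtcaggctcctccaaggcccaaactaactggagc
C1qb: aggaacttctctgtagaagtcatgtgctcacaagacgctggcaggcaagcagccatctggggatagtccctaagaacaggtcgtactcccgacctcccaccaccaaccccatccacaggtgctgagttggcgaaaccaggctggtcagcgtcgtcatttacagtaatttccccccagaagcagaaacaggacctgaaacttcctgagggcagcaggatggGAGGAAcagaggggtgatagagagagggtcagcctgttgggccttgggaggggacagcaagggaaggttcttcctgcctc
Trem2: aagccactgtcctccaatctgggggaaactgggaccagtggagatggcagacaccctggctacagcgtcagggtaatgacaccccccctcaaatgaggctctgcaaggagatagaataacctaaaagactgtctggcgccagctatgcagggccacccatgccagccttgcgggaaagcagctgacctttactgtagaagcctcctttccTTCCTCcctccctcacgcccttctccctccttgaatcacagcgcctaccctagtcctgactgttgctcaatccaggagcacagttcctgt
Cx3cr1: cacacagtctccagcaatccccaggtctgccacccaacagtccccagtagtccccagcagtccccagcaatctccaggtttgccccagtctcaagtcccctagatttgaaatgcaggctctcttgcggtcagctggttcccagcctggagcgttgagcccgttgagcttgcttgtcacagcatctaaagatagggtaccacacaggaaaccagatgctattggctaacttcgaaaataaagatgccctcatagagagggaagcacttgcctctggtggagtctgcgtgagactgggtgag
The match lies 7 bases before the start in Aif1, 30 bases before it in C1qb and 40 bases before it in Trem2, and Cx3cr1 has no match in this window. Searched on both strands, GAGGAA was in 16 of the 28 promoters of members (57.1%), which belong to 15 genes, and in 28.3% of all 32851 promoters in the table. By gene, 3 of the 4 shown and 12 of the other 20 had it. The AP-1 motif TGANTCA, likewise searched on both strands and with letters that cannot overlap those of GAGGAA, was in the promoters of Cd68 and Trem2, which are 7.14% of the members' promoters against 7.81% of all. A match describes these letters and is not a measured binding site.

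Of the chains of C1q, C1qa rose and the others did not pass the test. C1qa, the A chain, was at 9, 6 and 6 in sgLacZ and at 23, 22 and 24 in sgKcna1. Its highest control was well under its lowest sgKcna1 library, the means were 7 ± 1.73 and 23 ± 1 (SD, n = 3), and the ratio of 3.29 could lie between 3.00 and 3.62 given rounding. In limma the log2 fold change was 1.61 ± 0.19 (SE, adjusted p 0.0486), and C1qa passed in 10 of 17 other settings, with log2 fold changes from 1.52 to 1.78 over the settings. The exact two-sided permutation test of C1qa alone gave p = 0.1, the smallest that 3 libraries against 3 allow. Without sgLacZ replicate 3 the adjusted p was 0.0212, and without any one of the other 5 libraries it was over 0.05, up to 0.143. C1qb, the B chain, was at 1, 1 and 0 against 3, 3 and 3. Those groups did not overlap either, but at so low a level rounding allows a ratio anywhere from 2.14 to 10.5, and limma gave 1.33 ± 0.34 with an adjusted p of 0.0735 (0.0329 without sgLacZ replicate 3). C1qc, the C chain, was at 2, 2 and 1 against 1, 2 and 1, so its groups overlapped, with a log2 fold change of -0.20 ± 0.31 and an adjusted p of 0.692. The functional C1q molecule needs each of the A, B and C chains, whose genes are neighbours on mouse chromosome 4. The difference between the chains was not tested. In tags per 1000000, C1qa was the highest of them in each of the 6 libraries.

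Of the receptors, Cx3cr1 and Trem2 had groups that did not overlap. Cx3cr1, the fractalkine receptor, was at 3, 3 and 2 in sgLacZ and at 11, 6 and 10 in sgKcna1. The lowest sgKcna1 library was above the highest control, with means of 2.67 ± 0.577 and 9 ± 2.65 and a ratio of 3.38 (2.68 to 4.39 given rounding). limma gave 1.42 ± 0.28 on the log2 scale with an adjusted p of 0.0556, which missed the threshold, and 6 of 16 other settings passed it. The other members of this group, receptors for nucleotides and lysophospholipid, were at or near 0. P2ry12 and P2ry13 were at 0 throughout, and P2ry6 and Gpr34 did not exceed 1 in any library.

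Trem2, a lipid-sensing receptor, was at 1, 0 and 1 against 4, 3 and 5, with means of 0.667 ± 0.577 and 4 ± 1. No sgKcna1 library reached down to a control, and rounding allows a ratio from 3.00 to 13.5. Its log2 fold change of 1.64 ± 0.36 was the highest of any member, with an adjusted p of 0.0556 in limma (0.0499 without sgLacZ replicate 3). That rank depended on the setting, since after scaling with median-of-ratios factors C1qa was at 1.685 and Trem2 at 1.681. Tyrobp, the adaptor through which Trem2 signals, was at 2, 1 and 1 against 2, 2 and 1, so its groups overlapped (log2 fold change 0.20 ± 0.31, adjusted p 0.692). Csf1r, the receptor that microglia need to survive, was at 0, 4 and 2 against 4, 3 and 8. The groups overlapped, and limma gave 1.20 ± 0.62 on the log2 scale with an adjusted p of 0.277. Without sgLacZ replicate 1 the log2 fold change of Csf1r was 0.54, and it passed in 2 settings, without a filter on low values (adjusted p 0.0150) and with robust variance (0.0248). Trem2 thus separated the groups where its adaptor and the survival receptor did not, and the difference between these genes was not tested.

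Aif1 (IBA1), a calcium-binding protein that is the common histological marker of microglia, was at 10, 6 and 12 in sgLacZ and 18, 17 and 26 in sgKcna1. It was one of the better measured members, with means of 9.33 ± 3.06 and 20.3 ± 4.93, groups that did not overlap and a ratio of 2.18 (2.02 to 2.36 given rounding). limma gave 1.07 ± 0.28 on the log2 scale (adjusted p 0.0767), and 7 of 17 other settings passed the threshold. Among the other genes of activation, chemokines and antigen presentation, Ccl4, a chemokine of activated microglia, was listed at 0, 0 and 0 in sgLacZ and at 1, 1 and 2 in sgKcna1. Its adjusted p was 0.0556, and no fold is given against a group at 0. Ccl3, a chemokine gene annotated as overlapping Ccl4, so that tags may fall to either, was at 1, 0 and 0 against 1, 1 and 1. Cd74, the invariant chain of MHC class II, and Cd83 did not exceed 1 in any library, and Cd74 passed the threshold in 1 setting, without sgLacZ replicate 3 (adjusted p 0.0329).

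The pan-leukocyte genes were the most abundant group of members, with sums of 25 to 30 in sgLacZ and 33 to 36 in sgKcna1, and 0 of the 5 passed the test. Coro1a, an actin regulator of leukocytes that neurons can also express, was at 17, 21 and 20 against 20, 23 and 23. These groups overlapped, with means of 19.3 ± 2.08 and 22.0 ± 1.73, a log2 fold change of 0.18 ± 0.14 and an adjusted p of 0.513. Laptm5, a lysosomal membrane protein of haematopoietic cells, was at 5, 3 and 9 against 11, 8 and 12. The control at 9, replicate 3, lay above the lowest sgKcna1 library, and the log2 fold change of 0.85 ± 0.36 had an adjusted p of 0.210 in limma (0.0558 without that control, and 0.0401 with robust variance, the setting in which it passed). Without sgLacZ replicate 2 the log2 fold change of Laptm5 was 0.53 (adjusted p 0.434). Ptprc (CD45), Cd53 and Itgam (CD11b) did not exceed 2 in any library.

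The lysosomal and innate sensing members, the Fc receptors, the homeostatic genes and the transcription factors had groups that overlapped for each member above 0. Cd68, a lysosomal glycoprotein of macrophages, was at 4, 3 and 3 against 3, 4 and 4. Mpeg1, the pore-forming perforin-2, was at 3, 2 and 2 against 2, 4 and 6, and Lyz2, macrophage lysozyme, at 4, 3 and 0 against 3, 3 and 2. None of these adjusted p-values was near the threshold (0.797, 0.456 and 0.649 in limma). Cd14 and Unc93b1 did not exceed 1 in any library. The Fc receptor genes Fcgr1, Fcgr3 and Fcer1g were at 0 to 4, and the sum of these genes was 3 to 5 in sgLacZ and 3 to 8 in sgKcna1. Irf8, a transcription factor that works with PU.1, was at 3, 2 and 1 against 2, 2 and 1. Of the homeostatic genes, Olfml3 was at 1 or 2 and Fcrls at 0 to 3.

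The 6 members with separate groups summed to 24, 16 and 21 in sgLacZ and 60, 52 and 70 in sgKcna1, and the other 31 members to 53, 47 and 47 against 60, 61 and 74. The first ratio, 2.98, is set by the choice of those 6 on these values, and the second, over what that choice left, was 1.33.

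Of 7 ligands of microglial receptors, several of them made by neurons, 0 passed the test. Cx3cl1, the ligand of Cx3cr1, was at 29, 28 and 11 in sgLacZ and 13, 11 and 9 in sgKcna1, a log2 fold change of -0.88 ± 0.37 with an adjusted p of 0.209, and its sgLacZ replicate 3 stood with the sgKcna1 libraries. Without that library the adjusted p of Cx3cl1 was 0.0234. The Csf1r ligands were low, with Csf1 at 3, 1 and 4 against 3, 2 and 2 and Il34 at 0 in 5 of 6 libraries.

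In a list of 60 other genes known from microglia, 14 were at 0 in every library, 0 were higher and 2 were lower at an adjusted p under 0.05, and the median log2 fold change was 0.10, against -0.02 over all genes. Of those above 0, 25 had a fold change above 0 and 14 below. Groups did not overlap in 3 higher genes (Mertk, Cd52 and Nckap1l) and 5 lower genes (Gas6, Sall1, Itgb5, Pros1 and Dock8), where 8.98% of all genes were separated higher and 13.3% lower. Cd52, a surface glycoprotein of leukocytes, was at 2, 1 and 1 against 5, 3 and 4 (adjusted p 0.0806), and Nckap1l, an actin regulator of haematopoietic cells, at 1, 0 and 1 against 3, 2 and 2 (adjusted p 0.134). The 2 that fell were Gas6, a secreted ligand of the receptors Axl and Mertk, at 34, 32 and 26 against 14, 9 and 7 (-1.57 ± 0.25, adjusted p 0.0496), and Sall1, a transcription factor of microglial identity that neural progenitors also express, at 17, 16 and 13 against 7, 5 and 5 (-1.30 ± 0.21, adjusted p 0.0496). The other abundant genes of that list were Arpc1b, at 22, 18 and 26 against 21, 20 and 22, Rgs10, at 22, 14 and 17 against 16, 16 and 17, and Mertk, a receptor for engulfment, at 8, 8 and 8 against 13, 12 and 14 (adjusted p 0.0692). Tgfbr1, a receptor for a growth factor that microglia depend on, overlapped between groups, with an adjusted p of 0.476 in limma. Of 17 genes of disease-associated microglia, 0 passed in either direction. Among them Apoe, which astrocytes also make, was at 217, 199 and 249 against 214, 204 and 241, Axl was at 4 to 7, and Clec7a was at 0.

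Markers of other immune cells were at or near 0. All 13 monocyte and neutrophil markers, with Ly6c2, Ccr2 and S100a8 among them, were at 0 in each of the 6 libraries, as were 10 of 12 lymphocyte markers, including Cd3e, Cd3d and Cd3g. Of 10 markers of border macrophages, 7 were at 0, including Mrc1, Cd163 and Lyve1, and the sum was 0 to 2 in sgLacZ and 2 to 4 in sgKcna1. The 6 MHC class II genes summed to 9 to 10 against 6 to 11, with H2-Aa, H2-Ab1 and H2-Eb1 at 0 to 2. Of 12 inflammatory mediators, 6 were at 0, among them Tnf, Il1a and Il1b, and 0 passed the test. Nfkbia was not near 0, at 114, 92 and 83 against 63, 73 and 52 (adjusted p 0.0849 in limma). Ccl5 went the other way, at 2, 3 and 0 against 4, 5 and 4 (0.216). Of 10 later complement genes, 0 passed, and C1s1 and C2, which act next to C1q, were at 0, while C1ra reached 1 in a single library. Of 10 interferon response genes, 0 passed, with Ifit1 at 4, 4 and 2 against 2, 2 and 1, Ifit3 at 0 to 2 and Isg15 at 33, 26 and 20 against 19, 12 and 17.

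The summed value of 12 astrocyte markers was 995 to 1098 in sgLacZ and 727 to 755 in sgKcna1, with 0 higher and 3 lower at an adjusted p under 0.05. Those were Aqp4 (-1.42 ± 0.16, adjusted p 0.0486), Aldoc (-0.54 ± 0.08, 0.0496) and Sox9 (-0.56 ± 0.09, 0.0496), while Gfap was at 63, 45 and 57 against 46, 48 and 70 and Aldh1l1 at 5 to 12. The sum of 10 oligodendrocyte lineage markers was 72 to 104 against 47 to 51, with 1 lower, Olig2 (-1.05 ± 0.18, adjusted p 0.0497), beside Olig1 (adjusted p 0.0556) and Sox10 at 0 to 2. In the other direction Mbp, a protein of myelin, was at 3, 3 and 2 against 7, 4 and 7 (0.91 ± 0.29, adjusted p 0.113), the 1 gene of this list with separate groups that was higher, where 4 were lower. Over all genes with a mean of at least 1, groups did not overlap in 12.1% that were higher and 18.6% that were lower. The 10 cell cycle genes summed to 145 to 150 against 95 to 102, with 0 past the threshold, and Mki67, Top2a and Cdk1 had log2 fold changes of -0.53, -0.44 and -1.37. Groups did not overlap, with sgKcna1 lower, for 7 of these genes and for 6 of the 12 astrocyte markers. The share of all genes with a mean of at least 1 was 18.6%, and 0 of either list were separate and higher. The 12 vascular and mesenchymal markers summed to 16 to 20 against 7 to 15, with Cldn5, Pecam1 and Flt1 at 0 to 2. The 12 neuron markers, with Rbfox3 at 126 to 147, Map2 at 1427 to 1819 and Tubb3 at 1752 to 4591, summed to 6653 to 7511 against 7569 to 8946. Without Tubb3 the other 11, in a sum chosen after the data were seen, gave 4796, 4901 and 4906 against 4628, 4348 and 4355, and the median log2 fold change of the 12 was -0.05 with 8 below 0. None passed the threshold, while 3 had higher and 4 had lower groups that did not overlap, where among all genes with a mean of at least 1 these shares were 12.1% and 18.6%, and Tubb3 (0.92 ± 0.19, adjusted p 0.0556) was among the higher ones. Without sgLacZ replicate 3, where 14.2% of all genes were called, more genes of these lists passed. Among neuron markers 3 were then higher (Tubb3, Nefl and Slc17a7) and 3 lower (Snap25, Gad1 and Neurod6). Astrocyte markers had 5 lower and oligodendrocyte lineage markers 2, with Olig1 at an adjusted p of 0.0310 in limma, and 1 cell cycle gene, Pcna, was lower. Of the other microglia genes 1 was higher (Mertk, 0.0407) and 5 were lower (Gas6, Sall1, Dock8, Itgb5 and Lair1), of the disease-associated genes 2 were lower (Ctsl, 0.0209, and Cd9, 0.0442), of the ligands 2 were lower (Cx3cl1 and Cd200), and of the MHC class II genes H2-Ab1 was higher. The remaining lists had 0 calls there. These values moved with the groups in which the members differed, and their part in the members' result was not tested.

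**Figure D4:**
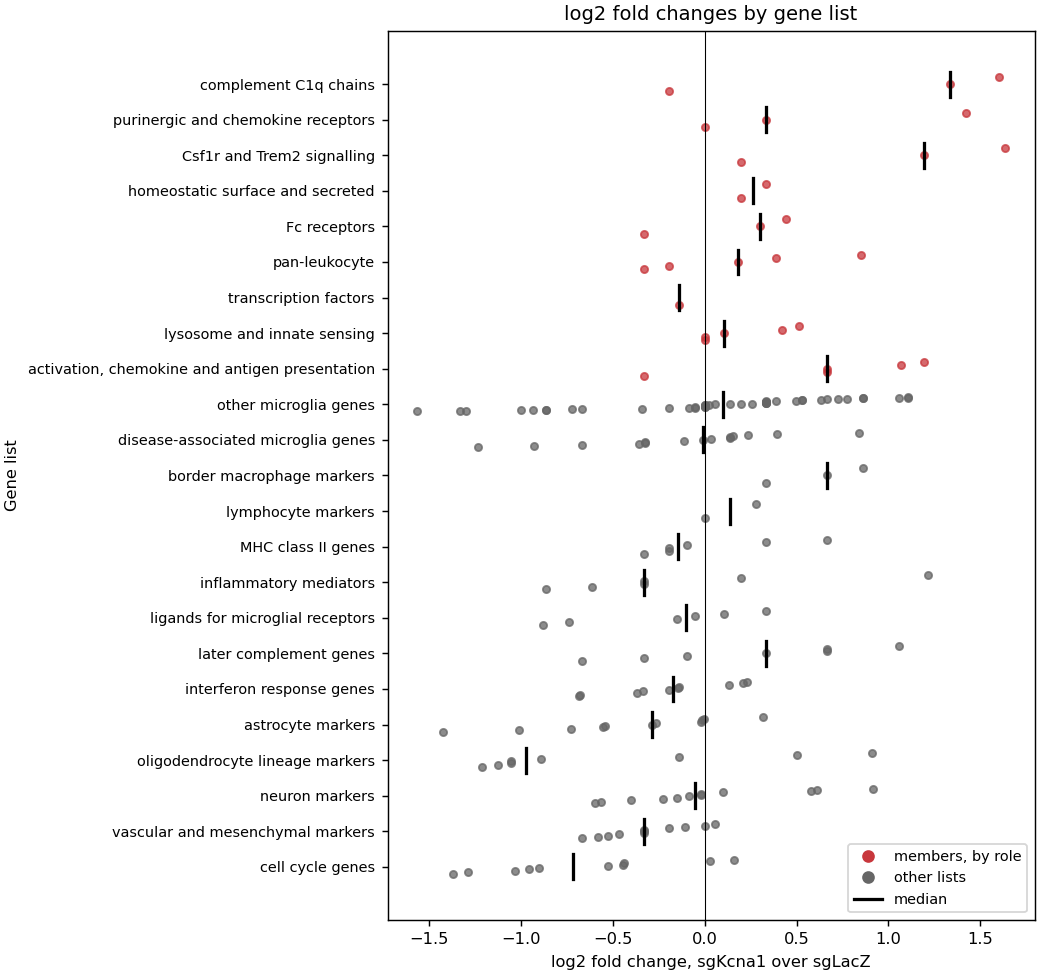
log2 fold change of sgKcna1 over sgLacZ (horizontal axis) for each gene above 0 in the members by role (red) and in the other lists (grey), with the median of each list as a vertical line. The C1q chains had a median of 1.33, and the astrocyte, oligodendrocyte lineage and cell cycle lists had medians of -0.29, -0.97 and -0.72.

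The member calls depended on the processing. Scaling with median-of-ratios factors placed 6 members past the threshold (C1qa, C1qb, Cx3cr1, Trem2, Aif1 and Ccl4), where that setting called 4.94% of all genes higher. With genes of a mean of at least 1 tested, 5 passed (the same without Ccl4), where 4.18% of all genes were called higher. Leaving out sgLacZ replicate 3 gave 4 (C1qa, C1qb, Trem2 and Cd74), where 14.2% of all genes were called and 6.06% were called higher, and leaving out any other single library gave 0. A total of 28 members passed in no setting.

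**Figure D5:**
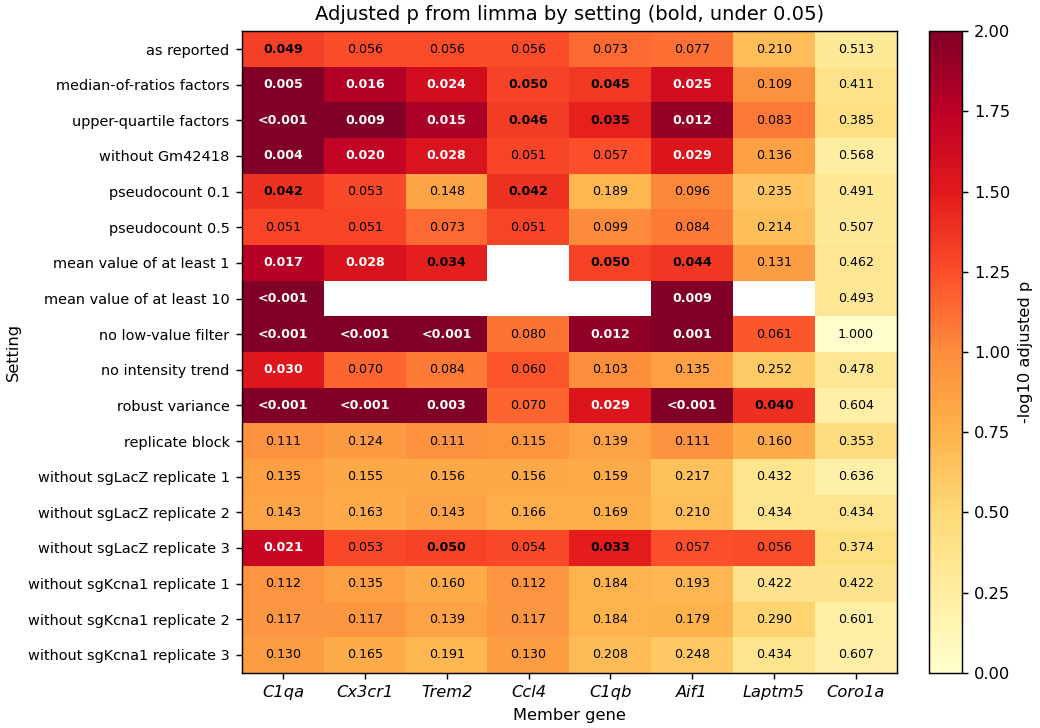
Adjusted p from limma for the 6 members with separate groups and for Laptm5 and Coro1a (columns), as reported and in 17 other settings (rows). Darker cells have a higher -log10 adjusted p, bold marks values under 0.05, and a white cell is a member removed by the filter on low values. As reported, C1qa was at 0.0486 and the other 5 members with separate groups were between 0.0556 and 0.0767.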

How the data were processed

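Total RNA of 6 libraries was prepared with a QuantSeq 3′ kit. The authors deposited 1 table per library with a symbol and a whole number. Because the deposited totals fall just under 1000000, the values were taken as scores, per-million values that the authors rounded to whole numbers. The sources differ on how they were made, since the methods name Bowtie2 on mm9 while the submitters' processing notes name mm10, STAR 2.7, featureCounts and DESeq2. No count test was therefore run.

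Groups came from the sample titles. log2(value + 1) was fitted with limma 3.58.1 in R 4.3.3 (lmFit, then eBayes with an intensity trend) on the 19504 genes with any value above 0, without covariates, with Benjamini-Hochberg adjustment and a threshold of 0.05. Single genes were also compared by a two-sided exact permutation test, printed for C1qa only. With 3 libraries against 3 it cannot give less than 0.1. Sums over members were not tested. The code was tested on simulated data. The members, gene lists and tests were chosen with earlier results of these data known.

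Members were named with their values where they passed the threshold, had groups that did not overlap or were among the 10 highest by mean, and in other lists where a gene passed, was among the first 3 (the defining markers) or, for other microglia genes, among the 5 highest. One gene that this rule names is not reported here. Other genes named were chosen after their values were seen. Rounding ranges add or take 0.5 per library. Alternatives were scaling, pseudocount, filter, variance options, a replicate block and leaving out each library. The sums without C1qa, Coro1a or C1qa, Aif1 and Coro1a were chosen after the data were seen. Promoters came from RefSeq GRCm38.p6, whose gene table held 34696 of the 50508 symbols.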

Additional observations from a re-analysis of the deposited data

How the results depend on the processing

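The number of genes past the threshold, 226 in the main setting (68 higher, 158 lower), the number of members (1) and the number of genes of the other lists (6) depended on the setting. They were 1721, 6 and 19 with median-of-ratios factors, where 963 of the 1721 were higher, 2058, 6 and 22 with upper-quartile factors (1226 higher), 1768, 4 and 21 without Gm42418 (a single gene with 15.3% to 20.2% of each library), 627, 2 and 10 with a pseudocount of 0.1, and 10, 0 and 0 with a pseudocount of 0.5. They were 1543, 5 and 19 with a mean of at least 1, 2289, 2 and 23 with a mean of at least 10, 2405, 6 and 29 without a filter, where the 31004 genes at 0 enter the variance fit, 201, 1 and 3 without the intensity trend, 2884, 7 and 30 with robust variance, and 0, 0 and 0 with the replicate block. Leaving out 1 library gave 0 to 2711, 0 to 4 and 0 to 25, with counts above 0 when sgLacZ replicate 3 was the one left out. The median log2 fold change of the members, 0.33, was 0.56 with a pseudocount of 0.1 and 1.07 with a mean of at least 10, and 0.20 to 0.39 with 1 library left out. The ratio of their sums, 1.81, was 2.07 without Coro1a and 1.68 to 1.92 with 1 library left out. The log2 fold change of Lyz2, 0.42, was -0.30 without sgLacZ replicate 3 and up to 0.86 with another library left out. The cause of these changes was not tested, beyond the fewer samples or genes that some settings hold. Rescaling moved the median of genes with a mean of at least 1 from -0.06 to 0.02 or 0.04. Whether equal replicate numbers mark paired libraries is not stated and was not tested. Deviations of same-numbered libraries correlated at 0.0143, 0.114 and 0.154 over 8050 genes. Pairs of unequal number lay from -0.156 to -0.00308, apart from sgLacZ replicate 1 with sgKcna1 replicate 2 (0.0989). Each sgKcna1 library thus correlated best with the sgLacZ library of its own number, but sgLacZ replicate 1 correlated best with sgKcna1 replicate 2. In the fit that blocked on replicate number, C1qa and Kcna1 each had an adjusted p of 0.111, and 0 genes passed. Values of 0 to 3 make up most member values, so rounding and an unknown depth limit what can be seen there.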

Other observations

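A ligand and receptor system of engulfment held values in both directions. Gas6 fell, Pros1, the other ligand of these receptors, was at 5 ± 0 in sgLacZ and 2.33 ± 0.577 in sgKcna1 (log2 fold change -0.86 ± 0.23, adjusted p 0.0838 in limma), Mertk was at 8 ± 0 and 13 ± 1 (0.64 ± 0.16, adjusted p 0.0692, and 0.0407 without sgLacZ replicate 3), and Axl at 4.67 ± 0.577 and 5.33 ± 1.53 (adjusted p 0.735, SD, n = 3 throughout). These genes are also expressed by astrocytes and other cells.

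Among the lysosomal cathepsins of the disease-associated list, Ctsz was at 11, 7 and 10 in sgLacZ and 17, 15 and 20 in sgKcna1 (0.84 ± 0.21, adjusted p 0.0712 in limma), and Ctsd at 234, 206 and 242 against 277, 328 and 291 (0.39 ± 0.11, 0.0815). Ctsl was at 48, 45 and 27 against 17, 22 and 21 (-0.93 ± 0.24, 0.0714, and 0.0209 without sgLacZ replicate 3), and Ctsb had a log2 fold change of -0.11 ± 0.12 (0.545). Cd200, which neurons present to the inhibitory receptor of microglia, was at 80, 88 and 56 against 39, 44 and 48 (-0.74 ± 0.18, adjusted p 0.0692, and 0.0215 without sgLacZ replicate 3), and C3, the central complement protein, at 0, 1 and 1 against 2, 3 and 2 (1.06 ± 0.36, adjusted p 0.134). These genes were chosen after their values were seen, and none passed the threshold in the main setting, other than Gas6.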
